A study of Drosophila melanogaster with 24 samples.

Results

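Heads of w1118 males were compared with bodies of w1118 males, both kept on a regular diet (RD), to find out which genes and functions mark the head and which mark the rest of a male fly. The comparison took the 3 male head RD libraries and the 3 male body RD libraries, chosen by their labels, out of 24 libraries in the series. The other 18 libraries are male heads and bodies on a high-fat diet (HFD, the regular food with added coconut oil) and female heads and bodies on both diets, with 3 libraries in each group. w1118 flies carry a mutation of the eye colour gene white and are otherwise used as a wild-type background, and no transgene is named for them. The flies had spent a week on their food. The labels give about 100 pooled heads or 10 pooled bodies per library (the study's methods name a larger pool of bodies), so a value is an average over flies. A body here is what was left of the fly once its head was removed. In an intact fly this is thorax, abdomen and legs, with the nerve cord, the flight muscle, the gut and the male reproductive tract. Whether the pooled bodies kept all these parts, or the pooled heads their antennae, was not tested.

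A fly head is mostly compound eyes and brain. In the eye, light activates a rhodopsin, which acts through a Gq protein on a phospholipase C and opens TRP channels, and arrestins end the response. The abdomen of a male holds the testes, where spermatocytes switch on a large programme of genes, many of them little used elsewhere, and the accessory glands and ejaculatory bulb, which make the proteins of the seminal fluid. Levels of messenger RNA in a bulk sample cannot tell apart fewer cells of a type and less RNA per cell.

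With M for mega, total counts on genes were 15.6 to 18.2 M in heads and 16.4 to 21.1 M in bodies. Levels are given as counts per M counts (CPM), scaled by TMM. Where genes are compared with each other, they are given as transcripts per M (TPM), which also divide by gene length. Fold changes are log2 values of head over body from edgeR's quasi-likelihood test, followed by their standard error (SE), and a gene was called at an adjusted p under 0.05. Nothing says that libraries with 1 label came from separately reared flies, so p-values measure the spread between these libraries.

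A single library stood apart in each tissue. In body 3 the 15 photoreceptor marker genes, among them ninaE, trp and chp, reached 3.62 to 8.33% of their mean level in heads (median 4.38%), against medians of 0.105% in body 1 and 0.143% in body 2. Their summed level was 71517, 65110 and 63968 CPM in heads 1 to 3, against 124, 122 and 2899 CPM in bodies 1 to 3. Across the 65 genes that had a mean of at least 10 CPM in heads and under 1% of that in bodies 1 and 2, body 3 was above both other bodies for 65, and its excess had a median of 4.18% of the head level, with quartiles of 3.82 and 4.67%. Fold changes of genes of the eye are therefore given with body 3 and without it. In head 1 the genes of cytoplasmic ribosomal proteins summed to 55074 CPM, against 23679 and 26511 CPM in heads 2 and 3, and the 20 pan-neuronal genes to 12494 CPM, against 19059 and 16955 CPM. Genes of late spermatogenesis were nearly unseen in heads. Summed over the 30 genes of this list, heads held 30.5 to 38.3 CPM and bodies 19325 to 23413 CPM. This put the highest head at 0.177% of the mean body. The 27 genes named Sfp, for seminal fluid protein, summed to 9.89 to 12.4 CPM in heads and 6612 to 9684 CPM in bodies. Whether such few reads in heads came from cells of the head was not tested.

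Most genes differed between the tissues, and the large differences lay mostly on the side of the body. Of 13046 genes tested, 4003 were higher in head (30.7%) and 5589 were higher in body (42.8%), while 3454 were not called. These shares are the base for all counts of list members given below. Differences of at least 4-fold were found for 1260 genes in head (9.66%) and 3814 in body (29.2%). Among the 9413 genes with at least 10 counts in every library, which leaves out genes unseen in heads, this balance was not seen, with 3247 genes higher in head and 2820 in body, and 900 and 852 of them at least 4-fold. A log2 fold change below -5 was seen for 2852 genes and one above 5 for 101. Without body 3 the test called 4137 genes in head and 5049 in body, and 173 genes were above 5. The heads held no read of 407 tested genes, 83 of which averaged at least 10 CPM in bodies, whereas the bodies held no read of 3. Bodies 1 and 2 alone held no read of 21 genes with a mean of at least 1 CPM in heads. The genes higher in head had a median length of 2862 bases, and those higher in body one of 1335 bases.

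**Figure D1:**
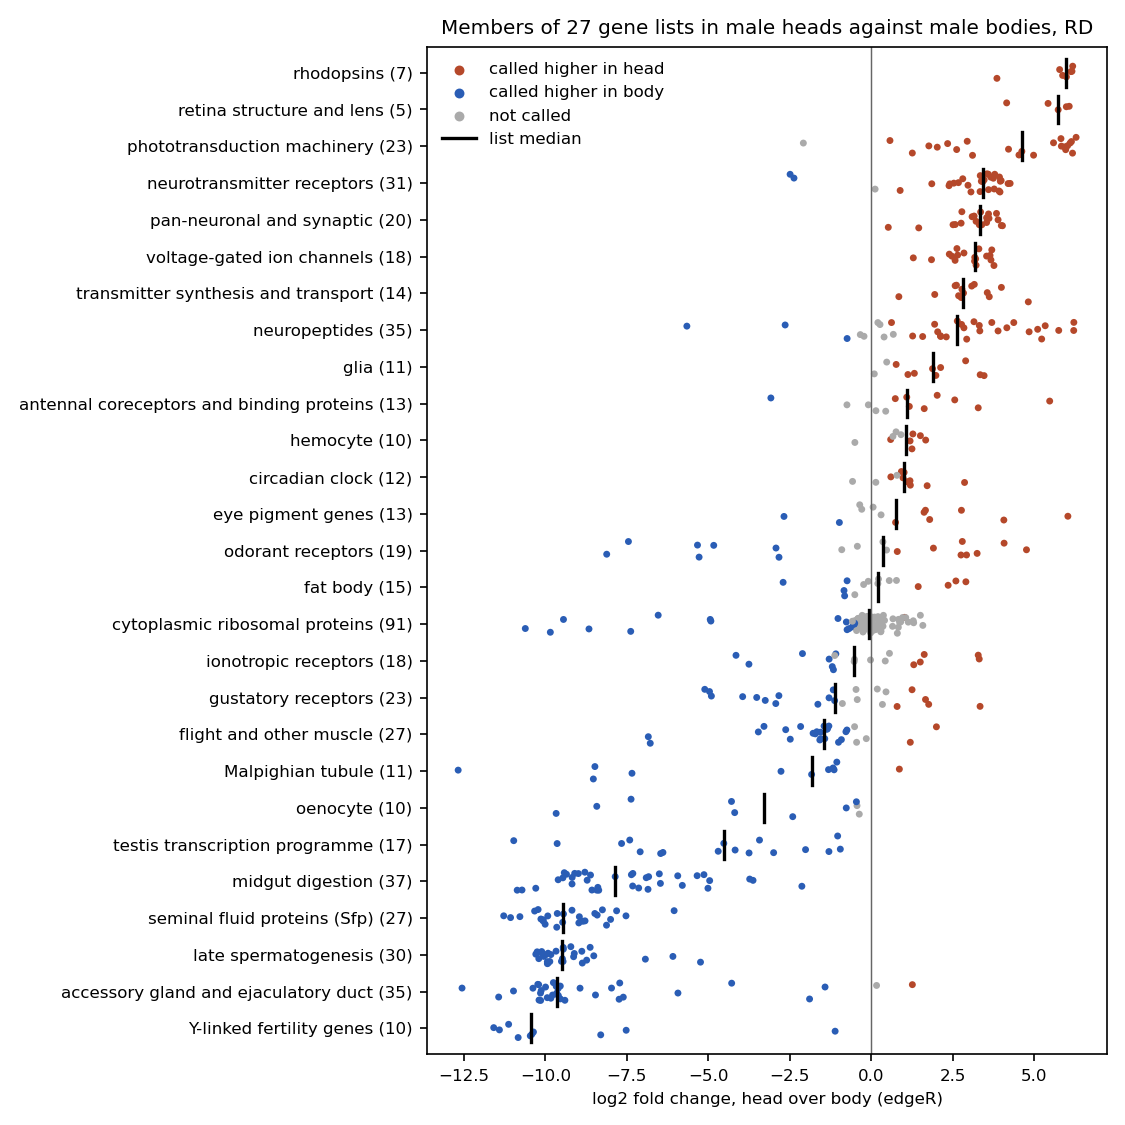
Log2 fold change, head over body, of each tested member (point) of 27 gene lists, with a bar at each list's median and the number of members tested in brackets; colours mark the call of edgeR's test. Lists of the eye and of neurons lie right of 0, with medians of 5.995 for rhodopsins and 3.34 for pan-neuronal genes, and lists of testis, accessory gland and midgut lie far to the left, with medians of -9.49, -9.65 and -7.86.

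Genes of the eye led the head. The 7 rhodopsin genes were higher in head in 7 of 7 cases, and their log2 fold changes had a median of 5.995 (9.51 without body 3), against a median of -0.18 over all genes tested (-0.02 without body 3). Of 23 tested genes of phototransduction, 22 were higher in head and none in body, with a median of 4.63 (5.42 without body 3). The 5 tested genes of retinal structure and lens, such as chp (chaoptin, a photoreceptor adhesion protein) and Cpr72Ec (a protein of the corneal lens), were all 5 higher in head, with a median of 5.74 (7.86 without body 3).

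ninaE, which encodes the main rhodopsin Rh1 of the outer photoreceptors R1 to R6, lies on chromosome 3R at 19886255 to 19888206 (BDGP6, minus strand). It had 28367, 24108 and 23904 CPM in heads, against 15.1, 19.6 and 1029 CPM in bodies. The heads lay together and above all bodies, and among the bodies only the third was high. Its log2 fold change was 6.17 (SE 1.73, adjusted p = 0.0129), and 10.67 without body 3. With 37425 ± 209 TPM (SD, n = 3) it was the most abundant transcript of the head, and it stood at 332 ± 546 TPM in bodies. Among coding genes Arr2 and Arr1, the arrestins that switch rhodopsin off, followed with 22634 and 8809 TPM in heads. CG8343, known by its number, was next among coding genes after RpL41, a ribosomal protein (6932 TPM), at 4965 TPM in heads and 47.6 TPM in bodies. It had 2325, 792 and 1039.9 CPM in heads and 1.07, 1.35 and 58.3 CPM in bodies, highest in head 1 and in body 3 (6.09, adjusted p = 0.0105; 10.31 without body 3).

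The inner photoreceptors and the signalling chain showed differences of the same order. Rh3, an ultraviolet opsin, had 1296, 1186 and 1177 CPM in heads and 1.18, 0.917 and 49.8 CPM in bodies (6.13; 10.32 without body 3). Rh6, an opsin of R8 cells, had 486, 192 and 239 CPM in heads and 0.321, 0.611 and 11.4 CPM in bodies (6.19; 9.51 without body 3), so that head 1 stood above the other 2 heads and body 3 above the other bodies. The channel gene trp had 3003, 2456 and 2302 CPM in heads, against 2.30, 2.996 and 101 CPM in bodies. Its log2 fold change was 6.18 (SE 1.55, adjusted p = 0.00762), and 10.09 without body 3. The scaffold gene inaD (6.15), the eye-specific G protein subunit gene Gbeta76C (6.29, adjusted p = 0.00573), the kinase gene inaC (6.03) and the second channel gene trpl (5.97) stood close together. Without body 3 the same 4 genes reached 10.34, 10.19, 10.14 and 9.72.

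Members of the chain that also serve other cells differed less. Galphaq, the Gq alpha subunit, had 367, 539 and 490.2 CPM in heads, against 80.2, 64.7 and 81.4 CPM in bodies. These groups did not overlap, body 3 was not set apart, and the log2 fold change was 2.62 (SE 0.20, adjusted p = 1.08e-05; 2.83 without body 3). norpA, the phospholipase C of phototransduction, stood at 4.22 (4.83 without body 3), the diacylglycerol kinase gene rdgA at 2.95 (3.20 without body 3), the lipid transfer protein gene rdgB at 1.26 (1.51 without it) and the sodium/calcium exchanger gene Calx at 0.58 (0.74 without it), all called. The call of Calx was lost without head 3 (0.54) and without body 2 (0.504). ninaD, a scavenger receptor for carotenoid uptake, was not called (log2 fold change -2.08, and -2.39 without body 3; called higher in body without body 1, at -2.61), and ninaA, a chaperone of Rh1, was listed at 0 counts in all 24 libraries.

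gl (glass), the transcription factor required to make photoreceptors, had 85.9, 79.0 and 90.4 CPM in heads and 0.107, 0.122 and 3.02 CPM in bodies, and a log2 fold change of 6.22 (SE 0.90, adjusted p = 0.000413; 9.60 without body 3). The Pax6 genes ey and toy, both on chromosome 4, were higher in head by 4.91 and 4.82 (5.70 and 5.69 without body 3). ey had 87.5, 85.7 and 88.2 CPM in heads and 1.98, 1.71 and 4.90 CPM in bodies. Among the 10 largest differences on the head side, rtp (retinophilin, a photoreceptor protein) stood at 6.18 (9.49 without body 3) and CG11368, known by its number, at 6.41, with 357, 91.3 and 102 CPM in heads, of which head 1 was the highest, and 0.160, 0.367 and 5.74 CPM in bodies (9.59 without body 3, 5.59 without head 1).

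**Figure D2:**
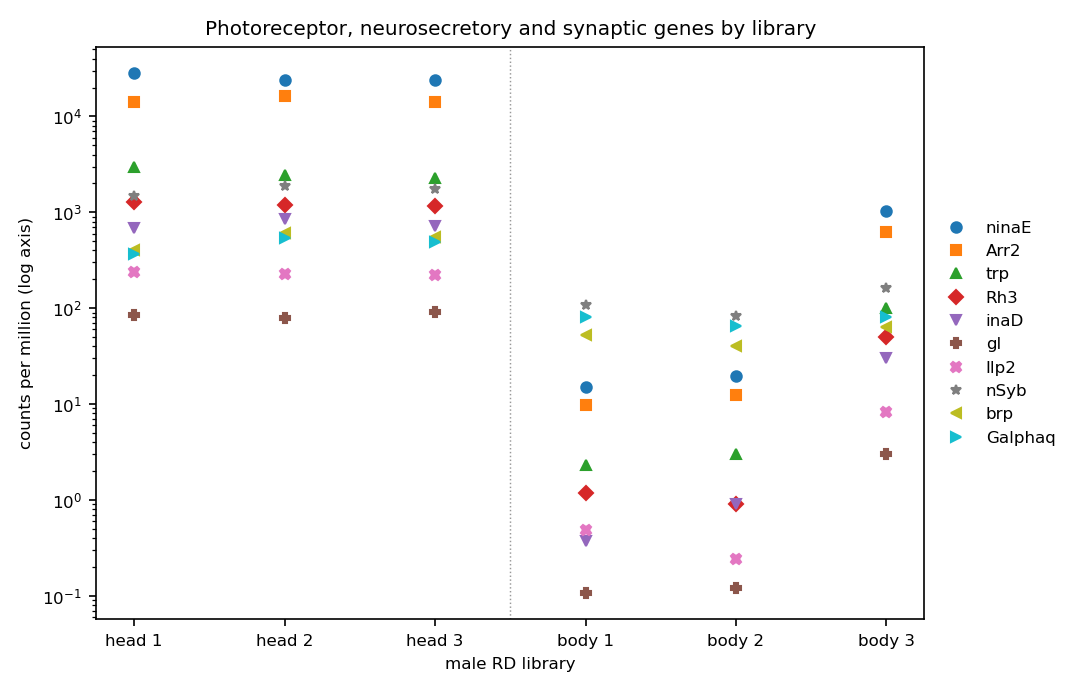
CPM (log axis) of 10 genes of photoreceptors, neurosecretory cells and synapses in each male RD library, heads on the left of the dotted line and bodies on the right. The genes ninaE, Arr2, trp, Rh3, inaD, gl and Ilp2 are higher in body 3 than in bodies 1 and 2 (1029 against 15.1 and 19.6 CPM for ninaE), while Galphaq is at 64.7 to 81.4 CPM in all 3 bodies.

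Eye pigment genes were mixed. Of 13 tested, 7 were higher in head, 2 were higher in body and 4 were not called, with a median of 0.75 (1.01 without body 3). The shares over all genes tested were 30.7% higher in head and 42.8% higher in body. The largest differences toward the head, those of se, bw and Pu, were in genes of the pteridine branch, which makes the red drosopterins. There se (sepia) stood at 6.04 (8.83 without body 3) and the transporter gene bw (brown) at 4.07 (4.49 without it). Pu (Punch, GTP cyclohydrolase) stood at 2.77 (2.93 without it) and pr (purple) at 1.67 (1.84 without it). Between Pu and pr came g (garnet), not counted in this branch here, at 1.80 (2.01 without body 3). The other genes called higher in head were car (carnation) at 1.62 (1.95 without it) and ca (claret) at 0.75 (1.01 without it). The branch was not higher in head throughout, since cl (clot, -0.35; -0.07 without body 3) and ry (rosy, 0.06; 0.15 without it) were not called. Pu had 404, 416 and 412 CPM in heads and 63.6, 56.4 and 60.4 CPM in bodies. w itself, mutated in this strain, had 0.504, 0.474 and 0.309 CPM in heads, against 2.62, 1.71 and 3.86 CPM in bodies. Its low reads were thus higher in bodies without overlap (log2 fold change -2.68, SE 0.40, adjusted p = 0.000461; -2.19 without body 3), and its partner st (scarlet) was also higher in body, at -0.98 (-0.82 without body 3).

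Neurons and their synapses also marked the head. All 20 genes of a pan-neuronal list were higher in head (median log2 fold change 3.34), and so were all 14 genes of transmitter synthesis and transport (median 2.81) and all 18 voltage-gated channel genes (median 3.18). nSyb, the synaptobrevin of synaptic vesicles, lies on 3L at 1630348 to 1637752 (plus strand) and had 1465, 1890 and 1759 CPM in heads, against 108, 82.8 and 164 CPM in bodies. The groups were far apart, with no single library deciding the difference of 3.85 (SE 0.30, adjusted p = 1.12e-05; 4.31 without body 3). brp (bruchpilot), a scaffold of the active zone, had 407, 611 and 553 CPM in heads and 52.9, 40.4 and 64.0 CPM in bodies (3.32). elav, the pan-neuronal RNA-binding protein, had 149, 306 and 277 CPM in heads and 37.9, 26.5 and 41.9 CPM in bodies (2.78). Head 1 was the lowest head for nSyb, brp and elav. The smallest difference in the list was that of Syx1A, a syntaxin with wider use, at 0.53, and its call was lost without head 2 or 3 (0.52 or 0.42) and without body 1 or 2 (0.51 or 0.46).

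Transmitter systems differed in size. Hdc, which makes histamine, the transmitter of photoreceptors, had 99.9, 64.3 and 72.0 CPM in heads and 0.856, 1.28 and 6.04 CPM in bodies, with a log2 fold change of 4.82 (6.36 without body 3). The choline acetyltransferase gene, listed as Cha, stood at 3.998 (4.75 without body 3), the vesicular glutamate transporter gene VGlut at 3.17, Gad1 (GABA synthesis) at 2.76 and the monoamine transporter gene Vmat at 2.68. ple, the tyrosine hydroxylase, also serves the cuticle: it had 63.0, 80.2 and 92.5 CPM in heads and 43.6, 39.8 and 47.4 CPM in bodies, and its difference of 0.85 was the smallest of the 14.

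Of 31 receptor genes for these transmitters, 28 were higher in head (median over the list 3.43), 2 were higher in body and 1 was not called. The 3 exceptions were the 3 glutamate receptor subunit genes of the neuromuscular junction in the list. GluRIIC had 2.90, 3.62 and 3.86 CPM in heads and 18.8, 17.1 and 17.9 CPM in bodies (-2.37, adjusted p = 9.24e-06), GluRIIB stood at -2.49, and GluRIIA was at 0.12 and not called. Among glial genes, 9 of 11 were higher in head and none in body, with a median of 1.88. Both lists stand beside 30.7% higher in head and 42.8% higher in body over all genes tested. The transporter gene Eaat2 had 695, 827 and 795 CPM in heads and 68.1, 50.7 and 90.6 CPM in bodies (3.47), and repo, the glial homeobox gene, 88.7, 48.6 and 47.7 CPM in heads and 7.11, 7.76 and 9.85 CPM in bodies (2.90).

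Genes of neuropeptides and peptide hormones were mostly higher in head. Of 35 tested genes for neuropeptides and peptide hormones, 26 were higher in head, 3 were higher in body and 6 were not called. Their median was 2.64 (3.07 without body 3). The shares over all genes tested were 30.7% higher in head and 42.8% higher in body. Ilp2, the insulin-like peptide of the median neurosecretory cells of the brain, lies on 3L at 9799698 to 9800440 (plus strand) and had 239, 225 and 223 CPM in heads, against 0.481, 0.245 and 8.26 CPM in bodies. The heads agreed closely, and among the bodies only the third had more than a trace (log2 fold change 6.22, SE 1.10, adjusted p = 0.00124; 9.40 without body 3). Dsk, the drosulfakinin gene that the same brain cells express, stood at 5.76 (8.27 without body 3), and the insulin-like genes Ilp5 and Ilp3 at 4.85 (5.82 without body 3, 4.14 without head 1) and 2.78.

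Hug (hugin), made by cells of the subesophageal zone, had 138, 66.2 and 70.5 CPM in heads and 0.214, 0.122 and 3.17 CPM in bodies (6.22; 9.15 without body 3). natalisin, which encodes a tachykinin-related peptide, had 33.8, 19.6 and 26.4 CPM in heads and 0, 0.0611 and 0.940 CPM in bodies (6.201; 9.67 without body 3). Head 1 was the highest head and body 3 the highest body for both. Crz (corazonin) stood at 5.34, Mip at 5.11, Dh44 (a diuretic hormone) at 4.38, SIFa at 4.17 and Pdf, the peptide of clock neurons, at 3.32. Without body 3, Crz stood at 7.06, Mip at 6.25, SIFa at 4.94 and Pdf at 4.03.

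The clearest exception was Akh, the adipokinetic hormone that mobilises stored fat and sugar and is made in the corpora cardiaca, beside the foregut. Akh lies on 3L at 4141467 to 4142070 and had 0.504, 0.119 and 0.360 CPM in heads, against 16.04, 16.1 and 18.3 CPM in bodies. Its 17 reads in heads stood against 933 in bodies, the bodies agreed closely, and the log2 fold change was -5.66 (SE 0.35, adjusted p = 3.59e-06; -5.44 without body 3). Ilp8 had 0.693, 0.415 and 0.309 CPM in heads and 2.78, 2.996 and 3.02 CPM in bodies (-2.64). Ilp7 was at 0.504 to 0.618 CPM in heads and 0.742 to 1.10 CPM in bodies (-0.74, adjusted p = 0.0425), and this call was lost whichever library was left out (-0.83 to -0.57). No call was made for Ilp6, an insulin-like peptide of the fat body (0.21), for CCHa2, a peptide of gut and fat body (0.40), or for Nplp2 (-0.22). ETH and Lk were listed at 0 counts in all 24 libraries.

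**Figure D3:**
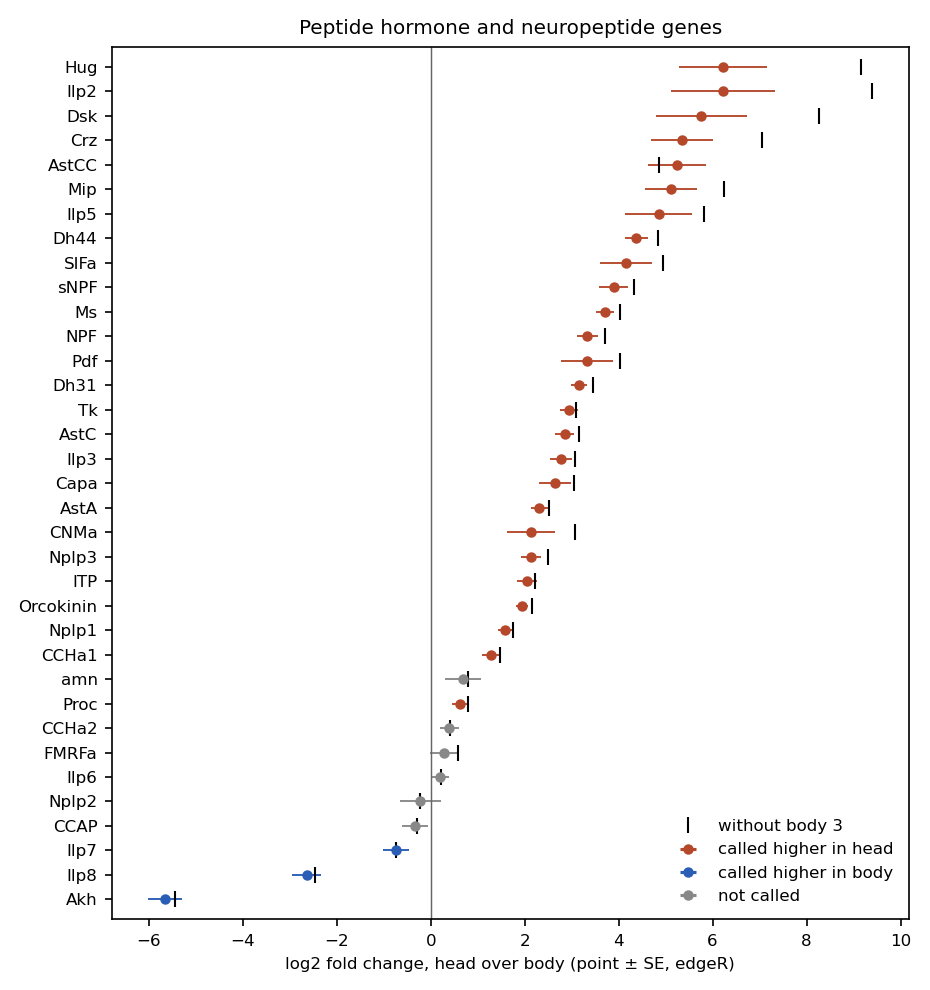
Log2 fold change, head over body, of 35 tested genes for neuropeptides and peptide hormones (point and SE from edgeR), ordered by size, with a tick for the value without body 3. Ilp2 and Hug are at the top at 6.22 and move to 9.40 and 9.15 without body 3, and Akh is alone at the bottom at -5.66.

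Clock genes were higher in head by smaller amounts. Of 12 tested, 9 were higher in head and none in body, with a median of 0.99, beside 30.7% and 42.8% over all genes tested. tim had 939.9, 502 and 543 CPM in heads and 387, 231 and 313 CPM in bodies (1.09). per, its partner, had 177, 38.8 and 49.2 CPM in heads and 12.3, 10.4 and 13.6 CPM in bodies. Head 1 was the highest head for both, and the fold change of per (2.87, SE 0.58, adjusted p = 0.00264) was the largest of the list and stood at 1.98 without head 1. Clk, the activator of both, had 33.3, 85.9 and 62.3 CPM in heads and 83.5 to 94.9 CPM in bodies and was not called (-0.57), except without head 2 (-0.86).

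Genes of odour detection in the antenna differed widely in level and direction. Whether the pooled heads kept their antennae was not tested. Orco, the coreceptor of odorant receptors, had 8.25, 5.22 and 9.52 CPM in heads and 1.497, 1.53 and 2.57 CPM in bodies (2.03, adjusted p = 0.000738). The odorant-binding protein gene lush had 2.08, 4.74 and 4.68 CPM in heads and 2.35, 3.67 and 2.47 CPM in bodies, overlapping (0.45, not called; called at 0.85 without head 1). Over the 3 heads Obp83a had 39 reads, and a5 and Obp59a had none; Obp83a was not called (-0.74), but without body 2 it was called higher in head (2.03). Of 13 tested coreceptor and binding protein genes, 8 were higher in head, 1 was higher in body and 4 were not called. Over all genes tested the shares were 30.7% higher in head and 42.8% higher in body. Binding protein genes with higher levels in heads included Obp56d, at a mean of 256 CPM in heads and 43.2 CPM in bodies (2.57; 3.22 without body 3), Obp57a, at 133 and 79.9 CPM (0.74), and Obp57b, at 64.3 and 28.5 CPM (1.17). Obp19d, a binding protein also found in taste organs, was an abundant member, with 1245, 227 and 295 CPM in heads and 5.40, 8.07 and 25.98 CPM in bodies (5.48, SE 0.95; 6.61 without body 3, 4.42 without head 1). Obp56a was the one higher in body, with 14.1, 17.7 and 13.1 CPM in heads and 130.0, 131 and 119 CPM in bodies (-3.08).

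Chemoreceptor genes were called in both directions, and their counts stand beside 30.7% higher in head and 42.8% higher in body over all genes tested. Of 59 odorant receptor genes only 19 had enough reads to test: 8 were higher in head and 7 in body. Or67d, the receptor for the male pheromone cis-vaccenyl acetate, had 1.26, 1.48 and 2.21 CPM in heads and 1 read in each body (4.77, with 88 reads in heads against 3, a ratio with a 95% interval of 10.3 to 154 for counting error only). Or63a stood at 4.08 (4.77 without body 3). Or59b went the other way, with 2 reads in heads and 701 in bodies, or 0, 0.119 and 0 CPM against 11.8, 11.8 and 14.3 CPM (-8.12, adjusted p = 4.74e-06). Among gustatory receptor genes 5 of 23 tested were higher in head, such as Gr66a, a bitter receptor, at 1.77, and 12 were higher in body, such as Gr98a at -4.91 (5 and 9 without body 3). Among ionotropic receptor genes 5 of 18 were higher in head, led by Ir68a at 3.32, and 7 were higher in body (6 and 4 without body 3).

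Genes of the male germ line were higher in body throughout both lists. All 17 genes of the transcription programme of spermatocytes were higher in body (median -4.52; 16 were called without body 3), as were all 30 genes of late spermatogenesis (median -9.49; 30 without body 3). dj (don juan), a protein of the sperm tail, had 0.567, 0.830 and 1.03 CPM in heads, against 1148, 836 and 929 CPM in bodies. All heads were far below any body, and the log2 fold change was -10.20 (SE 0.32, adjusted p = 1.38e-07). betaTub85D, the tubulin of the sperm axoneme, had 3.72, 3.44 and 2.88 CPM in heads and 1333, 1087 and 1256 CPM in bodies (-8.52). The sperm chromatin and tail genes Mst87F (-9.51) and Mst98Ca (-9.92), loopin-1 (-10.10) and S-Lap1 (-8.88), an aminopeptidase of sperm, were of the same order. Members of the Mst84D, Mst35B and S-Lap families are near copies, and how their reads were split is uncertain.

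Among the regulators, aly (always early), a subunit of the testis meiotic arrest complex, had 3 reads in heads and 607 in bodies (-7.41; 95% interval of the ratio 65.1 to 929). bam, which starts differentiation of the germ cells, had 1 read in heads and 127 in bodies (-6.46), and vas (vasa), a germ-cell helicase, stood at -3.90. Others of the programme had clear levels in heads. bol (boule), a translation regulator of meiosis, had 219, 423 and 371 CPM in heads and 791, 599 and 677 CPM in bodies, with a difference of -1.03. achi, a homeodomain protein, had 14.7, 16.9 and 16.5 CPM in heads and 35.1, 27.6 and 30.2 CPM in bodies (-0.95), and mip40 stood at -1.30.

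Genes of the Y chromosome followed the testis. All 12 tested genes of the Y were higher in body, and so were all 10 tested genes of a list of Y-linked fertility genes, at a median of -10.44, or of -7.66 with each gene that had no read in heads set at its bound. kl-2, an axonemal dynein heavy chain, lies on Y at 573088 to 664173, and had no read in any head and 24.2, 17.5 and 15.4 CPM in bodies. Against a floor of 3 counts over the heads it was at least 331-fold lower in heads. Pp1-Y2, a phosphatase, also had no read in heads (at least 374-fold lower), with 25.1, 18.5 and 20.9 CPM in bodies. The exception in size was fdy, with 2.83, 0.948 and 2.26 CPM in heads and 2.78, 5.93 and 4.35 CPM in bodies. Its groups overlapped, and its call (-1.11, adjusted p = 0.0493) was lost without head 2 or 3 (-0.76 or -1.20) and without body 2 or 3 (-0.83 or -0.95).

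Flies carry testis copies of many genes that every cell uses, and the pairs of copies parted cleanly. Of 32 testis copies 32 were higher in body, 31 of them at least 4-fold, with a median of -8.57. Of the 28 widely used copies, 5 were higher in head and 9 were higher in body, none by 4-fold, with values from -1.22 to 1.34 and a median of 0.07. Cytochrome c is an example: the testis gene Cyt-c-d stood at -8.62 and the common gene Cyt-c-p at 0.30, not called. Likewise the proteasome gene Prosalpha6T was at -9.58 (-10.20 without head 1) and Prosalpha6 at -1.02, and the mitofusin gene fzo (fuzzy onions), needed to fuse sperm mitochondria, had 0.315, 0.296 and 0.412 CPM in heads and 151, 126 and 139.7 CPM in bodies (-8.63). The exception among testis copies was Rpt4R, a proteasome ATPase, with 8.56, 8.53 and 8.29 CPM in heads and 25.8, 25.2 and 26.8 CPM in bodies (-1.62). The translation scaffold gene eIF4G2 also had clear levels in heads, at 89.1, 148 and 134 CPM, against 824, 645 and 718 CPM in bodies (-2.56).

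**Figure D4:**
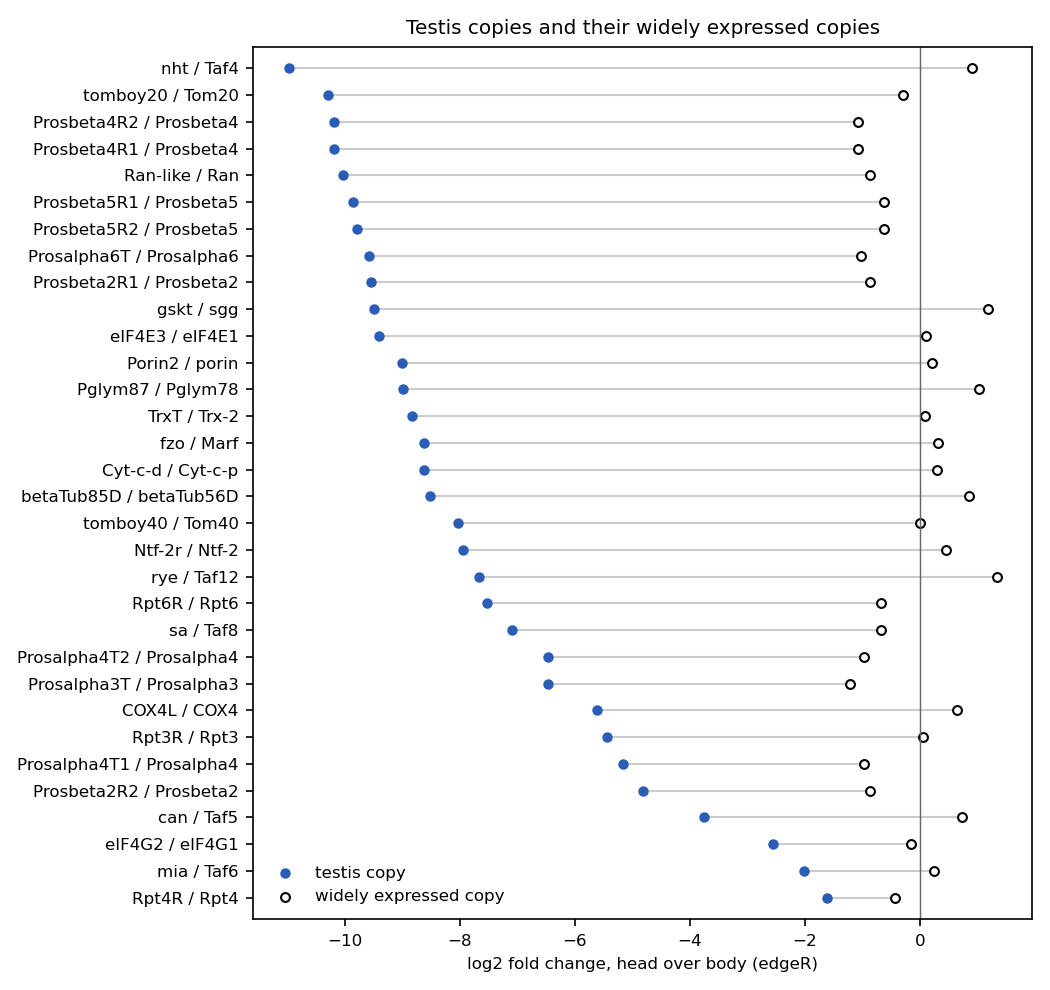
Log2 fold change, head over body, of 32 testis copies (filled) and of their widely used copies (open), 1 pair to a line. Open points lie between -1.22 and 1.34, and filled points lie at a median of -8.57, with Rpt4R at -1.62 the nearest to 0.

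Ribosomal protein genes showed a similar split for the genes that differed by at least 4-fold. Of 91 tested, 1 was higher in head, 15 were higher in body and 75 were not called, with a median of -0.08. The shares over all genes tested were 30.7% higher in head and 42.8% higher in body. The summed level of head 1 was above every body, while heads 2 and 3 (23679 and 26511 CPM) were below every body (34086 to 43502 CPM). The median stood at -0.64 without head 1, and at -0.28 to 0.17 when another library was left out. The 8 that were at least 4-fold higher in body were second copies: RpL10Aa, RpL22-like, RpL37b, RpS10a, RpS19b, RpS28-like, RpS28a and RpS5b. The others called higher in body differed by less than 4-fold, such as RpL41 at -1.02 (-0.89 without body 3). RpS19b had 1 read in heads and 2280 in bodies (-10.62; -12.49 without head 3), and RpL22-like stood at -9.45 (-8.85 without head 1, -10.59 without head 3). The single gene higher in head, RpL24-like, had 164, 60.3 and 69.9 CPM in heads and 42.4, 45.4 and 56.6 CPM in bodies (1.03, adjusted p = 0.0387), with head 1 far above the other heads, and its call was lost without body 1 (0.93) or body 2 (0.98).

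Seminal fluid genes were among the most abundant transcripts of the body. Of 35 tested genes of the accessory gland and ejaculatory duct and bulb, 33 were higher in body, with a median of -9.65, and all 27 genes named Sfp (seminal fluid protein) were higher in body (median -9.45). By TPM the body was led by Cyp4g1 (15756 ± 3708, SD, n = 3), Mst57Db (11342), Sfp87B (10961), PebII (10596), Sfp60F (9826) and CG43147 (9376), leaving out copies of ribosomal RNA whose reads cannot be placed. Mst57Db, Sfp87B and Sfp60F are products of the accessory gland and PebII of the ejaculatory bulb. All 6 were called higher in body, Mst57Db at -10.00.

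SP, the sex peptide, which changes the behaviour of a mated female, had 0.378, 0.652 and 0.875 CPM in heads and 592, 454 and 528 CPM in bodies (-9.65). Acp36DE, needed for sperm storage, had 2.14, 2.90 and 2.68 CPM in heads and 3755, 2523 and 2539.9 CPM in bodies (-10.15, SE 0.32, adjusted p = 1.43e-07). intr (intrepid), a serine protease homologue of the sex peptide network, had no read in heads and 48.8, 37.6 and 40.1 CPM in bodies (at least 734-fold lower in heads). All heads were thus far below any body for these 3 genes. PebIII was the one member higher in head, with 2531, 1254 and 1790.0 CPM in heads and 529, 773 and 1018 CPM in bodies (1.26, SE 0.33, adjusted p = 0.00920), and hdly was not called (0.17). Products with wider use were lower in heads by less: Est-6, an esterase, stood at -1.89 and Gld, glucose dehydrogenase, at -1.42.

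Digestive genes were all higher in body. Of 37 tested genes of midgut digestion 37 were higher in body, with a median of -7.86 (-7.32 with genes unseen in heads at their bound). alphaTry, a trypsin, had 1.76, 0.652 and 1.08 CPM in heads and 322, 863 and 592 CPM in bodies (-8.99). The chymotrypsin-like gene Jon99Ci stood at -9.10 (-9.69 without head 1), and the maltase gene Mal-A1 had 15.3, 15.6 and 15.9 CPM in heads and 304, 824 and 383 CPM in bodies (-5.01). Body 2 was the highest body for these 3 genes, and the summed level of the list was 79.6, 28.1 and 29.6 CPM in heads 1 to 3, against 2555, 6251 and 3902 CPM in bodies 1 to 3. The trypsin, Jonah, lysozyme and amylase genes are near copies within each family, and how their reads were split is uncertain.

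Genes of the Malpighian tubules, the fly's kidneys, were mostly higher in body. Oatp58Da, an organic anion transporter, had no read in heads and 51.6, 46.04 and 39.7 CPM in bodies, and was at least 797-fold lower in heads. Its neighbour Oatp58Db stood at -8.48. Uro, urate oxidase, had 3 reads in heads and 1318 in bodies (-8.53; 95% interval of the ratio 142 to 2014; -9.35 without head 1, -7.91 without head 3). Of 11 tubule genes 10 were higher in body, beside 42.8% of all genes tested, and 5 were at least 4-fold higher. The median of the list was -1.83, so the genes named above were at its far end. Lkr, the leucokinin receptor, also a neuronal gene, was higher in head (0.87). It had 8.94, 9.42 and 9.78 CPM in heads and 5.19, 4.04 and 6.19 CPM in bodies.

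Oenocytes, the cells under the abdominal cuticle that make hydrocarbons, gave the body its most abundant coding transcript. Cyp4g1, the P450 that makes the hydrocarbon from its aldehyde, lies on X at 467057 to 469335 and had 24.4, 30.8 and 33.6 CPM in heads, against 29701, 25062 and 17731 CPM in bodies. Its log2 fold change was -9.67 (SE 0.36, adjusted p = 2.23e-07). The fatty acid synthases of the same pathway, listed as v(2)k05816 and CG17374, stood at -8.42 and -7.37, and Cpr, the reductase that serves P450s, at -2.41. Over the list, 8 of 10 were higher in body, beside 42.8% of all genes tested (6 and 38.5% without body 3).

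**Figure D5:**
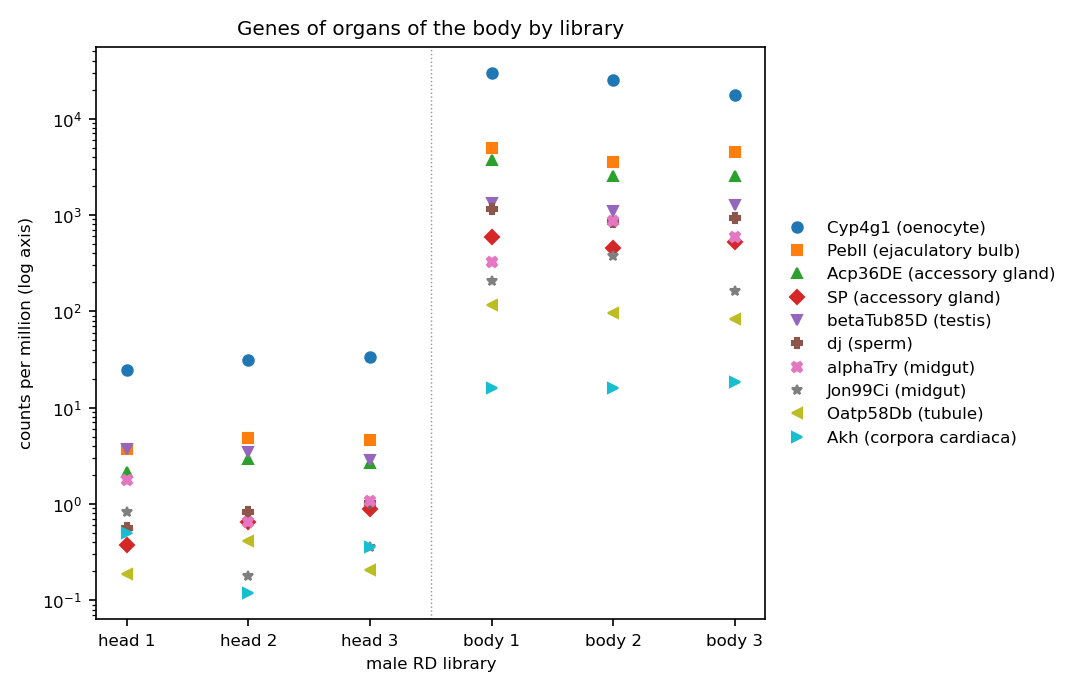
CPM (log axis) of 10 genes of organs of the body in each male RD library, heads on the left of the dotted line and bodies on the right. Cyp4g1 is at 24.4 to 33.6 CPM in heads and 17731 to 29701 CPM in bodies, and no other gene shown exceeds the 4.86 CPM of PebII in heads.

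Muscle genes were higher in body by modest amounts. Of 27 tested, 22 were higher in body, 2 were higher in head and 3 were not called, with a median of -1.45. Among all genes tested, 42.8% were higher in body and 30.7% higher in head. Mhc, the myosin heavy chain of all muscles, had 1142, 654 and 737 CPM in heads and 1485, 1771 and 1817 CPM in bodies (-1.002, SE 0.24, adjusted p = 0.00645). Genes of the indirect flight muscle did not go one way. TpnC4, a troponin C of flight muscle, had 0.189, 0 and 0.206 CPM in heads and 11.7, 29.2 and 7.67 CPM in bodies (-6.84; -6.11 without body 2). Act88F, the flight muscle actin, had 35.6, 26.4 and 27.3 CPM in heads and 30.4, 41.5 and 27.3 CPM in bodies (-0.15, adjusted p = 0.527), and fln (flightin) had 2.14, 5.22 and 3.81 CPM in heads and 1.604, 1.77 and 1.48 CPM in bodies (1.20). The levels of these defining genes of the largest muscle of the thorax were thus low in the libraries labelled body, where Act79B, the actin of tubular muscle, had 248, 297 and 357 CPM, against 40.4, 19.4 and 22.0 CPM in heads (-3.46). TpnC25D, another troponin C, was higher in head with 411, 376 and 399 CPM in heads and 85.1, 95.01 and 116 CPM in bodies (2.003).

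Ordered by fitted fold change, the first 10 genes on the side of the body had no read in any head, so that only bounds can be given and their order is not measured. Beside Oatp58Da and intr they were CG32023 (at least 739-fold lower in heads), CG43183 (712), CG6873 (656), CG13538 (629), CG43127 (616), PpN58A, a phosphatase (613), and the non-coding genes CR45013 (709.5) and CR43811 (607). CG32023 had 39.6, 42.9 and 44.9 CPM in bodies, which agreed closely. Among genes with a name, VhaM9.7-d, a subunit of the proton pump V-ATPase, was at least 578-fold lower, ord, which holds sister chromatids together in meiosis, at least 488-fold, and the tetraspanin gene Tsp33B at least 429-fold. Acp26Ab, an accessory gland peptide, had 0.189, 0 and 0.0515 CPM in heads, against 267, 188 and 242 CPM in bodies (-11.44, and -12.62 without head 1). Its measured ratio was above all these bounds but rested on 4 reads in heads. The bounds are lower limits, so Acp26Ab is not ranked above those genes.

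Fat body and blood cells are found in both tissues, and their lists showed no common direction or only small differences. Of 15 tested fat body genes, 4 were higher in head, 4 were higher in body and 7 were not called (median 0.21). Over all genes tested, 30.7% were higher in head and 42.8% higher in body, so these counts do not set the fat body list apart toward either tissue. Lsp2, a storage protein, had 188, 162 and 57.7 CPM in heads and 16.9, 36.3 and 14.2 CPM in bodies (2.60), and the yolk protein gene Yp3 had 19.1, 4.92 and 7.36 CPM in heads and 0.909, 1.41 and 1.83 CPM in bodies (2.91; 2.25 without head 1). The glycine N-methyltransferase gene, listed as CG6188, stood at -2.70, and the lipase gene bmm at -0.74. Of 10 hemocyte genes 6 were higher in head and none in body (median 1.05), with NimC1, a phagocytosis receptor, at 1.51 and Hml (hemolectin) at 1.28.

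The differences were unevenly spread over the chromosomes. On the X, 764 of 2009 tested genes were higher in head (38.03%) and 653 were higher in body (32.5%). On chromosome 4, 63 of 93 were higher in head (67.7%) and 11 were higher in body (11.8%). On the other arms the share higher in head was 26.1% (2L), 29.7% (2R), 29.9% (3L) and 29.97% (3R), and the share higher in body was 42.7 to 49.5%. Of 987 non-coding RNA genes, 640 were at least 4-fold higher in body (64.8%), against 3124 of 11844 protein-coding genes (26.4%).

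The same contrast in the 6 male HFD libraries, which share no library with the RD comparison, called 3760 of 12813 genes higher in head (29.3%) and 4357 higher in body (34%). Of the genes called higher in head on RD, 3486 were also called on HFD, or 87.1% of the RD calls and 92.7% of the HFD calls. Of those called higher in body, 4318 were shared, or 77.3% and 99.1%. No gene was called in opposite directions. In a fit of all 12 male libraries the head to body difference was called as differing with diet for 0 of 13308 genes (smallest adjusted p = 0.915 by edgeR), with 418 at an unadjusted p under 0.05, and DESeq2 called 0, with 493 at an unadjusted p under 0.05. With 3 libraries in each group, a count of 0 does not show that the difference was the same on both diets. On HFD, log2 fold changes were 9.05 for ninaE, -9.85 for SP and -7.79 for dj. dj had 0.947, 2.06 and 12.2 CPM in the 3 HFD heads (labelled 2 to 4), so that the last of them was above every RD head.

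In females on RD the same contrast called 4434 of 10725 genes higher in head (41.3%) and 4885 higher in body (45.5%). In a fit of the 12 RD libraries the head to body difference differed between the sexes for 8763 of 13458 genes (65.1%). Cyp4g1 was not among them: it averaged 8.37 CPM in female heads and 6223 CPM in female bodies, and the difference between male and female fold changes was 0.28 (adjusted p = 0.574). No read of dj, kl-2 or SP was found in any female library on RD.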

How the data were processed

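RNA sequencing libraries of male heads and bodies were compared. The study's methods name the TruSeq Stranded mRNA kit and paired reads aligned with TopHat, and the submitters' processing notes name featureCounts and dm6. The authors deposited raw counts, without normalization, for 16727 genes, each with a length. The version and settings of the counting (strand, reads that fit several genes) are not given in the sources used here, and the methods name a mouse annotation, so the reads of near copies, overlapping and antisense genes are uncertain. Positions are from the BDGP6 annotation, in which 16445 symbols matched an identifier and 282 did not.

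Genes were kept by filterByExpr (minimum count 10, minimum total 15), normalized by TMM and tested with edgeR 4.0.16 in R 4.3.3 (glmQLFit and glmQLFTest, head against body, 3 libraries each), with Benjamini-Hochberg adjustment over all genes tested and a threshold of 0.05. The SE is the size of the log2 fold change divided by the square root of F. CPM used TMM-scaled totals, and TPM were computed from the counts and the deposited lengths. Genes with no read in heads were given a bound from a floor of 3 counts over the 3 heads. For ratios with 1 to 3 counts in the lower tissue, a 95% exact interval is printed for aly, Uro and Or67d only. The values of bam, RpS19b and Or59b, with 1 or 2 reads in heads, are given without it. Interactions of tissue with diet and with sex were tested in 12 libraries each. Alternatives used DESeq2 1.42.0, limma 3.58.1 (voom), other scalings and filters, a replicate block, a fold threshold, and each library left out. Figures were drawn with matplotlib 3.10.9 from tables handled in Python 3.11.15 with pandas 2.3.3.

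The named genes were the 10 largest differences in each direction with a mean of at least 10 CPM in the higher tissue and no overlap, the 10 such genes with a name, the 10 highest by TPM in each tissue, list members and w; others (such as ey, toy and vas) were chosen after their values were seen. The comparison, the 28 gene lists and the 32 pairs of copies were chosen with earlier results of these data known, so their counts are descriptions. Depth was 15.6 to 21.1 M counts per library; intervals cover counting error only.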

Additional observations from a re-analysis of the deposited data

Results flagged for a closer look

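The head to body difference was set beside that of female libraries on RD in a fit of 12 libraries, and it differed between the sexes by edgeR's interaction test for 8763 genes of 13458. Differences of the log2 fold change, male minus female, are given for a few genes of the report, picked by hand, whose difference was called. Cyp4g1, Act88F and Yp3 were also picked and were not called.

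bol, a regulator of meiosis in the testis, averaged 235 CPM in female heads and 21.1 CPM in female bodies, and its head to body difference was lower in males by -4.06 (adjusted p = 5.35e-07). PebIII averaged 2386 CPM in female heads and 220 CPM in female bodies (male minus female -1.79, adjusted p = 0.000744), and nSyb 1386 CPM in female heads and 28.7 CPM in female bodies (-1.31, adjusted p = 0.00231). Mhc differed in direction: it was lower in male heads than in male bodies, whereas it averaged 1654 CPM in female heads and 772 CPM in female bodies (-1.71, adjusted p = 1.00e-04). For ninaE the difference of -3.89 (adjusted p = 0.0443) rested on male body RD 3: without it the value was 0.39 (adjusted p = 0.406), with means of 23766 CPM in female heads and 16.2 CPM in female bodies.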

How the results depend on the processing

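Counts of calls moved by over 1.5 times in 3 cases. With at least 10 counts required in every library, which leaves 9413 genes and drops those unseen in heads, 3247 genes were higher in head and 2820 in body, 900 and 852 of them at least 4-fold, so that the balance between the tissues turned. Against a log2 fold change of 1 (glmTreat), 1984 genes were higher in head. Leaving out a library gave 3607 to 4520 genes higher in head and 5049 to 5836 higher in body, at least 4-fold 1234 to 1467 and 3744 to 3900; on HFD it gave 2855 to 3673 and 4070 to 4839. DESeq2 called 4102 and 5566 genes, voom 3953 and 5640, RLE scaling 4047 and 5545. Total counts and upper quartile scaling moved the median of all genes by 0.12 and 0.21 and called 4428 and 5341, and 4753 and 5166. Head and body libraries of the same number did not deviate together (correlations -0.44, -0.24 and -0.04), and a replicate block in the fit gave 3490 and 5363 calls. Of 203 named genes, 166 kept direction and side of the threshold under all 16 settings; Ilp7, Desat1, fdy, cry and RpL24-like were among those that did not. Medians reversed for odorant receptors without head 3 (-0.19; range over left-out libraries -0.19 to 1.03), gustatory receptors with genes of at least 1 count (0.47) and ionotropic receptors with 10 counts in every library (0.30). Obp83a, not called at -0.74, was called higher in head without body 2 (2.03; range over left-out libraries -1.33 to 2.03). The difference between sexes of ninaE was 0.39 without body 3. The causes were not tested. Fold changes of genes with few reads in heads moved by over 1.5 times without a single head (Or59b -8.12 and -10.83 without head 2 or -7.53 without head 3, bam -6.46 and -8.36 without head 1). Outlying libraries were not tested for in groups of 3.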
